A study of Homo sapiens with 60 samples.

Results

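Insulin signalling and its feedback through FOXO transcription factors were followed in HepG2 cells through 8 genes, INSR, IRS1, IRS2, PIK3R1, PIK3IP1, FOXO1, FOXO3 and DEPP1. They were chosen by symbol for their place in the pathway, with earlier results of these data known. The Ensembl IDs of the count table were mapped to gene names. They are 8 of 60675 genes in the table, and all 8 were among the 16644 genes that passed the filter on low counts. HepG2 is a hepatocellular carcinoma cell line. The 60 RNA-seq libraries are from cells exposed to an aqueous extract or vehicle for 24 h. The extracts come from the herbs Menthae Herba and Saposhnikoviae Radix and from the formulas Saengmaek-san and Guibi-tang, and Soyo-san and Okbyeongpung-san. All were given at 20, 100 and 500 µg/mL to 3 libraries a dose. Soshiho-tang had 1 library at each of the same doses, so no test was made for it. The vehicle group had 3 libraries, with DMSO at 0.1% in the sample labels and at 2% in the design text of the series. That text also names a wortmannin control, and wortmannin, an inhibitor of PI3K, was not analysed here. All groups are the same line. Whether replicates were grown as separate cultures is not in the labels, and p-values cover no more than the spread between the samples sequenced, which may be technical.

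Insulin binds the insulin receptor, a tyrosine kinase of the cell surface, which phosphorylates the receptor substrates IRS1 and IRS2. The substrates recruit PI3K, a lipid kinase whose product brings AKT to the membrane, and AKT phosphorylates FOXO proteins and keeps them out of the nucleus. When the signal is low, FOXO proteins enter the nucleus and raise transcription of their targets. In several cell types these targets include genes of the pathway itself, among them INSR and IRS2, which is the feedback meant here. In liver the FOXO1 protein also promotes transcription of genes for glucose production. The mRNA levels reported here carry no measure of phosphorylation or of where a protein lies in the cell.

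The libraries held 20446542 to 32386486 expected counts, median 25862356. Levels are given as CPM, counts relative to the library total after TMM adjustment, and are compared between groups, not between genes. All 10 hepatocyte markers were abundant in every library, with ALB at 6750 to 8390 CPM, AFP at 2590 to 3340 CPM and TTR, the lowest, at 57.6 to 112 CPM. The leukocyte markers PTPRC, CD3E, LST1 and TYROBP and the fibroblast markers COL1A2, DCN and LUM never exceeded 1 count. Of the remaining fibroblast markers, PDGFRB stood at 24.5 ± 0.222 CPM with Menthae Herba at 500 µg/mL, against 12.3 ± 0.646 CPM in vehicle (SD, n = 3 each), COL1A1 at 0.459 to 1.51 CPM over all libraries and COL3A1 at no more than 0.208 CPM. The leukocyte marker CD68 stood at 30.5 to 51.1 CPM. The part of these markers in the results was not tested. The libraries fell into a higher and a lower class by the nuclear noncoding RNA MALAT1. The 29 higher libraries had 387 to 552 CPM of MALAT1 and the 31 lower libraries 175 to 282 CPM. All Menthae Herba, Saposhnikoviae Radix and vehicle libraries were in the lower class, those of Soyo-san, of Okbyeongpung-san and of Soshiho-tang were all in the higher one, and Saengmaek-san and Guibi-tang had libraries of both. A comparison of 500 with 20 µg/mL of Menthae Herba, Saposhnikoviae Radix, Soyo-san or Okbyeongpung-san therefore lies within 1 class.

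The promoters of the 8 genes, from 250 bases before to 50 bases after each start in the RefSeq table for GRCh38.p14, were searched on both strands. The letters sought were GTAAACA, the core of a site for FOXO and other forkhead factors, and CAAAACA, the core of an insulin response element. GTAAACA was in 3.42% and CAAAACA in 4.92% of 35116 promoters of that length, and either was in 8.07%. Matches were in windows of DEPP1, PIK3IP1 and IRS2. The shares are per window, and PIK3R1, PIK3IP1 and FOXO3 have more than 1 window each, so they are not shares per gene. The stretches with the match in capitals are shown because 3 of the genes that were higher with Menthae Herba at 500 µg/mL hold them. They lie at chr10:44978810-44979059 for DEPP1, chr22:31292454-31292483 for PIK3IP1 and chr13:109786584-109786648 for IRS2, all on the minus strand and written 5′ to 3′.
DEPP1: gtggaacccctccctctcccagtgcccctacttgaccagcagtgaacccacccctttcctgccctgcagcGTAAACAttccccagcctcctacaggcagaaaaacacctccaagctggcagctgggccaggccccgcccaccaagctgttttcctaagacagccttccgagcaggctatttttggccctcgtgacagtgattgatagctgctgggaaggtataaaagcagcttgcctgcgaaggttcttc
PIK3IP1: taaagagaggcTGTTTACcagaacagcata
IRS2: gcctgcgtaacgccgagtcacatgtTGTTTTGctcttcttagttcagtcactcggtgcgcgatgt
In DEPP1 the match reads along the gene and begins at position -180 from the start. In PIK3IP1 it is the reverse complement TGTTTAC, 17 bases from 1 of the gene's starts, and in IRS2 the reverse complement TGTTTTG begins at position -40. The windows of INSR, IRS1, PIK3R1, FOXO1 and FOXO3 did not hold these letters. A match of letters is a description and does not show that a factor binds there.

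Menthae Herba at 500 µg/mL, an extract of the mint herb, changed the most of the 8 genes. Against vehicle 4 genes, DEPP1, IRS2, PIK3IP1 and INSR, were higher and 2, FOXO1 and PIK3R1, were lower, where 19.8% of all genes tested were called higher and 20% lower. Within Menthae Herba, 500 against 20 µg/mL gave higher DEPP1, PIK3IP1, INSR and FOXO3, where 16.2% of all genes were called higher. Among the other extracts DEPP1 was also higher at 500 than at 20 µg/mL with Soyo-san and Guibi-tang, but not at 100 µg/mL. FOXO1 stood below vehicle in all 18 comparisons of an extract dose with vehicle.

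A gene was called when its p from edgeR's quasi-likelihood test, after Benjamini-Hochberg adjustment over the 16644 genes, was under 0.05. With Menthae Herba 1 of the 8 genes was called against vehicle at 20 µg/mL, 1 at 100 and 6 at 500, where 6.81%, 13.9% and 39.8% of all genes were called. For Saposhnikoviae Radix the counts at 20, 100 and 500 µg/mL were 1, 2 and 1 of 8, beside 7.18%, 5.38% and 5.79% of all genes. For Saengmaek-san they were 0, 1 and 1, beside 3.42%, 6.06% and 12.6%. For Guibi-tang they were 1, 1 and 2, beside 4.28%, 7.89% and 13.4%. For Soyo-san they were 2, 2 and 2, beside 4%, 8.29% and 21.4%. For Okbyeongpung-san they were 2, 2 and 2, beside 6.92%, 12.9% and 9.11%. In the 18 comparisons with vehicle, FOXO1 made up 14 of the 30 calls and DEPP1 8, and the other 6 genes together had 8. All 18 share the same 3 vehicle libraries and are not independent of each other. For 0 calls with Saengmaek-san at 20 µg/mL, edgeR gave 1 gene of 8 at an unadjusted p under 0.05 and DESeq2 called 0.

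Between 500 and 20 µg/mL of the same extract, 4 of the 8 genes were called with Menthae Herba, where 32.2% of all genes were called. Guibi-tang had 1 call beside 8.14% of all genes, and Soyo-san 1 beside 7.56%. Saposhnikoviae Radix, Saengmaek-san and Okbyeongpung-san had 0 calls, beside 0.391%, 1.89% and 0.024% of all genes. At an unadjusted p under 0.05 edgeR gave 1, 1 and 0 of the 8 genes in these last 3 comparisons, and DESeq2 called 0 in each. The change with dose was also compared between extracts whose sample codes begin with the same number. Menthae Herba and Saposhnikoviae Radix differed in 3 of the 8 genes, beside 20% of all genes. Soyo-san and Okbyeongpung-san differed in 1, beside 2.37%, and Saengmaek-san and Guibi-tang in 0, beside 1.13%. For that count of 0, edgeR gave 0 of 8 at an unadjusted p under 0.05 and DESeq2 called 0.

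**Figure D1:**
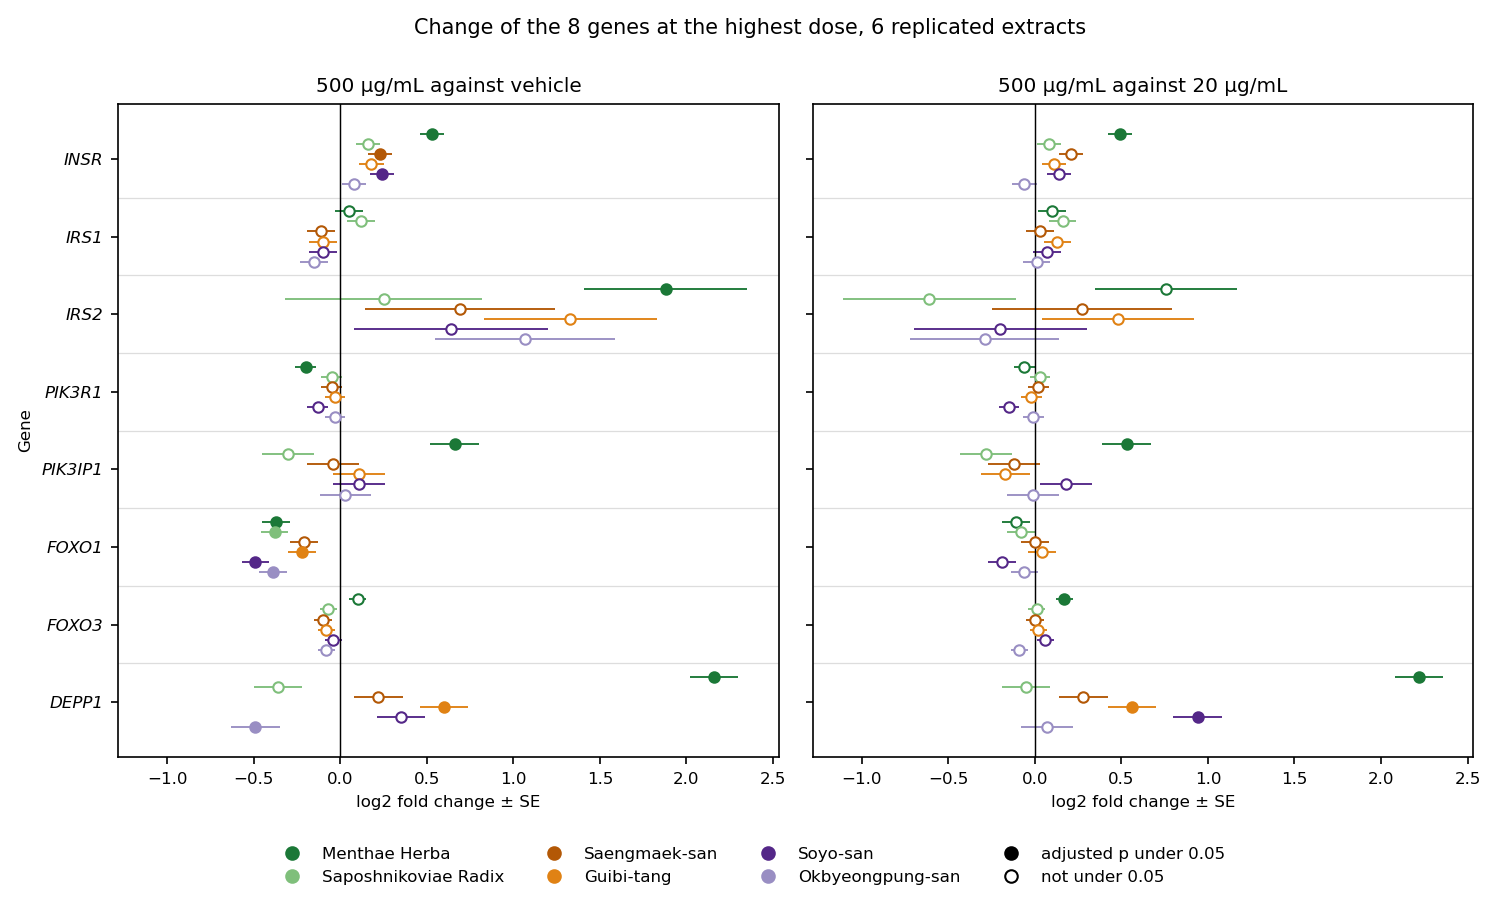
Log2 fold change ± SE of the 8 genes at 500 µg/mL against vehicle (left) and against 20 µg/mL of the same extract (right), with filled points for an adjusted p under 0.05. DEPP1 with Menthae Herba lies farthest from 0, at 2.16 ± 0.14 and 2.22 ± 0.14, while FOXO1 lies below 0 for all 6 extracts against vehicle and within 0.19 of 0 against 20 µg/mL.

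DEPP1 encodes an autophagy regulator first described as induced by progesterone in decidua, and its gene is a known FOXO target. The gene lies at chr10:44970981-44978810 on the minus strand (GENCODE v29, GRCh38). It had 119, 142 and 137 CPM in the Menthae Herba libraries at 500 µg/mL, against 26.8, 31.3 and 30.9 CPM in vehicle. At 20 µg/mL Menthae Herba had 24.2, 28.5 and 32.3 CPM, and at 100 µg/mL 32.7, 38.3 and 37.4 CPM. The libraries at 500 µg/mL stood far above all others, and those at 20 µg/mL and vehicle overlapped. The log2 fold change at 500 µg/mL was 2.16 ± 0.14 against vehicle (SE, adjusted p = 8.01e-17) and 2.22 ± 0.14 against 20 µg/mL (adjusted p = 5.04e-17). In a bulk sample, more RNA per cell and more cells that express a gene cannot be told apart.

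Guibi-tang at 500 µg/mL had 36.5, 48.4 and 49.7 CPM of DEPP1, against 26.0, 32 and 33.4 CPM at 20 µg/mL and the same vehicle values. All 3 libraries at 500 µg/mL were above those at 20 µg/mL and above vehicle. At 100 µg/mL the libraries had 20.9 to 31 CPM, which overlapped those at 20 µg/mL. The log2 fold change was 0.60 ± 0.14 against vehicle (adjusted p = 0.00182) and 0.56 against 20 µg/mL (adjusted p = 0.00492). Without Guibi-tang 20 replicate 1, and in a fit of only these 2 groups, the call against 20 µg/mL was lost.

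Soyo-san at 500 µg/mL had 33.6, 38.5 and 41.3 CPM of DEPP1, against 17.4, 19 and 22.6 CPM at 20 µg/mL. The groups did not overlap, and the log2 fold change was 0.94 ± 0.14 (adjusted p = 8.84e-06), with all libraries in the higher MALAT1 class. At 100 µg/mL the values were 20.8, 20.7 and 16.5 CPM, which overlapped those at 20 µg/mL. Against vehicle the change at 500 µg/mL was 0.35 ± 0.14 and was not called (adjusted p = 0.0656). It was called with no filter (adjusted p = 1.8e-05), with the replicate number as a block (0.002, and 0.00106 within the first code number), with only the groups compared (0.00338), by DESeq2 (0.0394) and without Soyo-san 500 replicate 1 (0.0484). With the MALAT1 class as a term it was 0.09 (adjusted p = 0.714). That term can be estimated only from Saengmaek-san and Guibi-tang, whose groups hold both classes, and not from the groups compared here.

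Several low and middle doses had less DEPP1 than vehicle. Soyo-san gave -0.59 ± 0.15 at 20 µg/mL and -0.61 ± 0.15 at 100 µg/mL on the log2 scale, both called. Okbyeongpung-san gave -0.57 ± 0.15, -0.83 ± 0.15 and -0.49 ± 0.14 at 20, 100 and 500 µg/mL, all called, with 15.0, 18.5 and 16.5 CPM at 100 µg/mL. These extracts lie in the higher MALAT1 class and vehicle in the lower one. With the class as a term in the fit, the changes of the 5 called doses ran from -1.09 to -0.75. That term is estimated only from Saengmaek-san and Guibi-tang, so these comparisons cannot separate class from extract. The call at 100 µg/mL of Okbyeongpung-san held without any 1 library. The other 4 did not: Soyo-san at 20 µg/mL was lost without Vehicle replicate 2 or 3 or its own replicate 1 or 2, and Soyo-san at 100 µg/mL without its replicate 3. Okbyeongpung-san at 20 µg/mL was lost without Vehicle replicate 2 or its own replicate 3, and at 500 µg/mL without Vehicle replicate 2 or 3 or its own replicate 1 or 2. Saposhnikoviae Radix, of the same class as vehicle, gave -0.47 ± 0.14 at 100 µg/mL (adjusted p = 0.045), and this call was lost without any 1 of the 6 libraries compared. The Soshiho-tang libraries had 15.0, 11.3 and 15.3 CPM at 20, 100 and 500 µg/mL, the lowest at 100 µg/mL of all 60.

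The 22 group means of DEPP1 spanned a ratio of 11.8, the widest of the 8 genes. From the top they were 133 ± 12.0 CPM with Menthae Herba at 500 µg/mL, 44.9 ± 7.28 with Guibi-tang at 500 µg/mL and 37.8 ± 3.89 with Soyo-san at 500 µg/mL (SD, n = 3 each). Next came Menthae Herba at 100 µg/mL with 36.2 ± 3.01 CPM and Saengmaek-san at 500 µg/mL with 34.5 ± 4.90 CPM, and vehicle had 29.7 ± 2.49 CPM. Of the 18 pairs of neighbours in the order of the 19 replicated groups, 1 pair did not overlap, Menthae Herba and Guibi-tang at 500 µg/mL. The exons of DEPP1 share 695 bases with those of RASSF4 on the opposite strand. The library kit keeps strand, but the strand setting of the counting is not given in the sources used here. RASSF4 stood at 66.0 CPM of the unadjusted total with Menthae Herba at 500 µg/mL, at 79.8 CPM with Menthae Herba at 20 µg/mL and at 71.3 CPM in vehicle.

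The difference between extracts in the change with dose was largest for DEPP1. The log2 change of 500 against 20 µg/mL was 2.27 ± 0.20 larger with Menthae Herba than with Saposhnikoviae Radix (adjusted p = 6.66e-12). Saposhnikoviae Radix had 20.9, 24.3 and 24.0 CPM at 500 µg/mL, against 21.2, 23.3 and 27 CPM at 20 µg/mL. These overlapped. The change was 0.87 ± 0.21 larger with Soyo-san than with Okbyeongpung-san (adjusted p = 0.0128), which had 19.3, 19.4 and 24.4 CPM at 500 µg/mL, against 20.3, 20.3 and 19.4 CPM at 20 µg/mL. This second difference was lost without Soyo-san 20 replicate 1 (adjusted p = 0.0537).

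**Figure D2:**
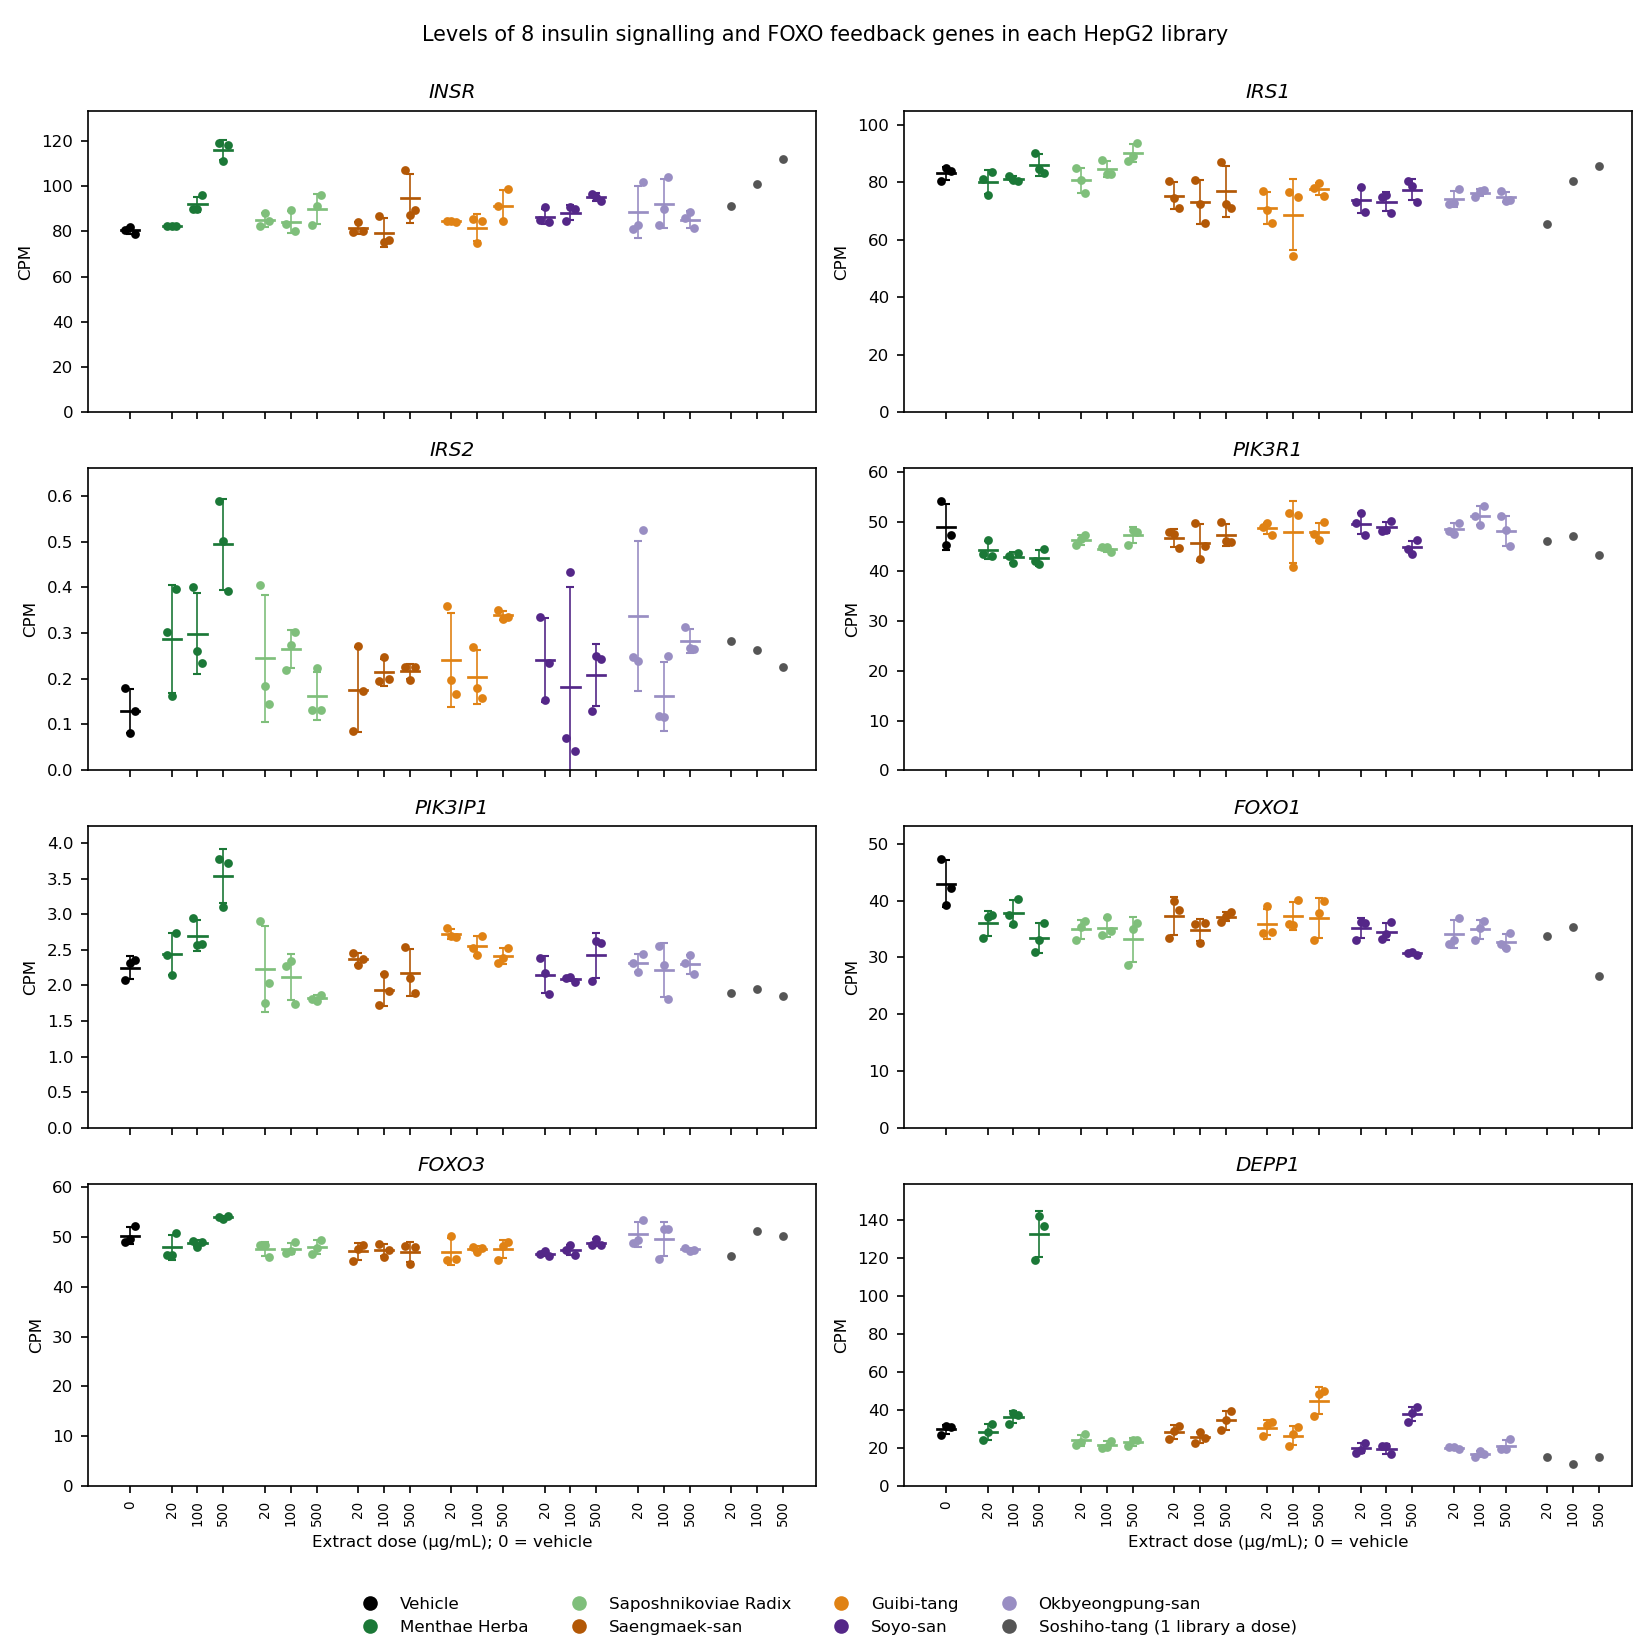
CPM of each gene in each library, by extract and dose, with vehicle at dose 0, bars for the mean and whiskers for the SD of 3 libraries. DEPP1 reaches 133 CPM with Menthae Herba at 500 µg/mL against 29.7 CPM in vehicle, and INSR 116 CPM against 80.4 CPM, while FOXO1 has its highest mean, 43.0 CPM, in vehicle.

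INSR encodes the insulin receptor and lies at chr19:7112255-7294034 on the minus strand. It had 119, 111 and 118 CPM with Menthae Herba at 500 µg/mL, against 80.4, 82.1 and 78.8 CPM in vehicle. At 20 µg/mL Menthae Herba had 82.2, 82.3 and 82.5 CPM, and at 100 µg/mL 89.9, 89.9 and 95.9 CPM. The libraries at 500 µg/mL were above all 57 others of the series except that Soshiho-tang at 500 µg/mL, with 112 CPM, exceeded 1 of them. The log2 fold change was 0.53 ± 0.07 against vehicle (adjusted p = 3.22e-08) and 0.49 ± 0.07 against 20 µg/mL (adjusted p = 1.87e-07). The change with dose was 0.41 ± 0.10 larger than with Saposhnikoviae Radix (adjusted p = 0.0021).

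Soyo-san at 500 µg/mL had 96.7, 95.2 and 93.2 CPM of INSR, above all vehicle libraries, with a log2 fold change of 0.24 ± 0.07 (adjusted p = 0.0128). Saengmaek-san at 500 µg/mL had 107, 87.1 and 89.5 CPM and a change of 0.23 ± 0.07 (adjusted p = 0.0257). This call was lost without Saengmaek-san 500 replicate 1, without Vehicle replicate 1 or 3, and in a fit of only the groups compared. Neither was called against 20 µg/mL, with 0.14 ± 0.07 for Soyo-san and 0.21 ± 0.07 for Saengmaek-san. The fold change against vehicle was above 0 in 17 of the 18 comparisons, and 49 of the 57 extract libraries were above every vehicle library. For IRS2 that number was 43, for PIK3IP1 26 and for DEPP1 18. All these counts use the same vehicle libraries, and the share over all genes was not computed. Soshiho-tang had 91.2, 101 and 112 CPM at 20, 100 and 500 µg/mL, with no replicate.

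IRS1 and IRS2 encode the substrates that carry the signal from the receptor to PI3K. IRS1 (chr2:226731317-226799759, minus strand) ran from 54.5 to 93.7 CPM over all libraries. Menthae Herba at 500 µg/mL had 90.4, 84.6 and 83.4 CPM, against 80.6, 84.9 and 84.1 CPM in vehicle, and these overlapped. The 1 call of IRS1 was with Guibi-tang at 100 µg/mL, which had 76.8, 54.5 and 75.0 CPM, a log2 fold change of -0.27 against vehicle (adjusted p = 0.0189). It was lost without Guibi-tang 100 replicate 2, the lowest library, and without Vehicle replicate 2 or 3. The call was also lost with the MALAT1 class as a term and in a fit of only the groups compared. Between 500 and 20 µg/mL the fold change was above 0 for all 6 extracts, from 0.01 to 0.16, and edgeR called 0 of 6, with 1 at an unadjusted p under 0.05 and 0 called by DESeq2.

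IRS2 (chr13:109752698-109786568, minus strand) was close to the limit of detection, with 1 to 17 counts a library. A floor of 3 counts equals 0.147 CPM in the smallest library and 0.0926 CPM in the largest. Menthae Herba at 500 µg/mL had 17, 12 and 10 counts, against 5, 2 and 3 counts in vehicle. The groups did not overlap, and the summed counts of 39 and 10 gave a ratio of 3.86 after division by the library totals, with a 95% interval of 1.89 to 8.67, which covers counting error only. The fitted log2 fold change was 1.88 ± 0.47 (adjusted p = 0.00101). With Menthae Herba at 20 µg/mL the counts were 8, 4 and 11, which overlapped those at 500 µg/mL, and the change with dose was not called. Over the other extracts at 500 µg/mL the ratio to vehicle ran from 1.24 with Saposhnikoviae Radix (interval 0.5 to 3.15) to 2.65 with Guibi-tang (1.24 to 6.16), with no call by the fit. The fitted change was above 0 in all 18 comparisons, each of which uses the same 10 vehicle counts.

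PIK3R1 encodes the regulatory subunit that docks PI3K on the receptor substrates, and PIK3IP1 a membrane protein that inhibits the kinase. PIK3IP1 (chr22:31281593-31292534, minus strand) had 3.78, 3.10 and 3.72 CPM with Menthae Herba at 500 µg/mL, against 2.07, 2.32 and 2.36 CPM in vehicle. At 20 µg/mL Menthae Herba had 2.42, 2.15 and 2.74 CPM, and at 100 µg/mL 2.95, 2.57 and 2.58 CPM. The 3 libraries at 500 µg/mL were the highest of all 60. The log2 fold change was 0.66 ± 0.14 against vehicle (adjusted p = 0.000122) and 0.53 ± 0.14 against 20 µg/mL (adjusted p = 0.00166).

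Saposhnikoviae Radix at 500 µg/mL had the lowest replicated mean of PIK3IP1, 1.82 CPM, with 1.81, 1.78 and 1.87 CPM, against 2.90, 1.75 and 2.04 CPM at 20 µg/mL. These overlapped, and neither -0.28 ± 0.15 against 20 µg/mL nor -0.30 ± 0.15 against vehicle was called. The change with dose was 0.81 ± 0.20 larger with Menthae Herba than with Saposhnikoviae Radix (adjusted p = 0.00208). It was lost without Saposhnikoviae Radix 20 replicate 1, the library at 2.90 CPM (adjusted p = 0.0533). No other extract had a call of PIK3IP1.

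PIK3R1 (chr5:68215720-68301821, plus strand) moved the other way with Menthae Herba. It had 42.1, 41.4 and 44.5 CPM at 500 µg/mL and 43.1, 41.6 and 43.8 CPM at 100 µg/mL, against 54.2, 45.4 and 47.3 CPM in vehicle. The groups did not overlap, but 1 vehicle library stood well above the other two. The log2 fold changes were -0.20 ± 0.06 at 500 µg/mL (adjusted p = 0.00769) and -0.19 ± 0.06 at 100 µg/mL (adjusted p = 0.0285). Both calls were lost without Vehicle replicate 1. That at 100 µg/mL was also lost without Menthae Herba 100 replicate 1 or 2 and in a fit of only the groups compared. With 43.5, 46.4 and 43.1 CPM at 20 µg/mL, the libraries of 500 and 20 µg/mL overlapped, and the change was -0.06 ± 0.06.

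FOXO1 and FOXO3 encode the transcription factors that AKT inactivates. FOXO1 (chr13:40469953-40666597, minus strand) had 47.4, 39.3 and 42.3 CPM in vehicle, the highest mean of all groups at 43.0 ± 4.08 CPM. It was lower than vehicle in all 18 comparisons, from -0.49 to -0.19 on the log2 scale, and 14 of them were called. Of the 57 extract libraries 53 were below every vehicle library. That number was 42 for FOXO3, 37 for IRS1, 32 for DEPP1, 20 for PIK3R1, 16 for PIK3IP1, 3 for INSR and 2 for IRS2. All these counts use the same 3 vehicle libraries, and the share over all genes was not computed. The lowest replicated group was Soyo-san at 500 µg/mL, with 30.8, 31.0 and 30.5 CPM and a change of -0.49 ± 0.08 (adjusted p = 2.95e-06). Menthae Herba at 500 µg/mL had 30.9, 33.1 and 36.1 CPM, a change of -0.37 ± 0.08 (adjusted p = 7.61e-05). Neither group overlapped vehicle. Saposhnikoviae Radix and Okbyeongpung-san at 500 µg/mL gave -0.38 (adjusted p = 0.0011) and -0.39 (adjusted p = 0.000517).

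No dose order of FOXO1 was detected by these tests. Between 500 and 20 µg/mL edgeR called 0 of 6 extracts, with 1 at an unadjusted p under 0.05 and 0 called by DESeq2, and the changes ran from -0.19 to 0.04. The difference from vehicle was already present at 20 µg/mL, where 5 of 6 extracts were called, from -0.34 to -0.21. Without Vehicle replicate 1 all changes stayed below 0, from -0.41 to -0.11, against -0.49 to -0.19 with it. The calls went from 14 of 18 to 4. These 4 were Menthae Herba, Saposhnikoviae Radix, Soyo-san and Okbyeongpung-san, each at 500 µg/mL. Fits without 1 library also shifted calls over all genes, with 114 to 1225 for Menthae Herba at 20 µg/mL against 1133 in the main fit. How far the lost calls reflect Vehicle replicate 1 or the smaller group was not tested. With the MALAT1 class as a term, which is estimated only from Saengmaek-san and Guibi-tang, 17 of 18 were called. An effect common to the extracts and a feature of the vehicle libraries themselves cannot be told apart. Soshiho-tang had 33.7, 35.4 and 26.7 CPM at 20, 100 and 500 µg/mL, and the last was the lowest of all 60 libraries.

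**Figure D3:**
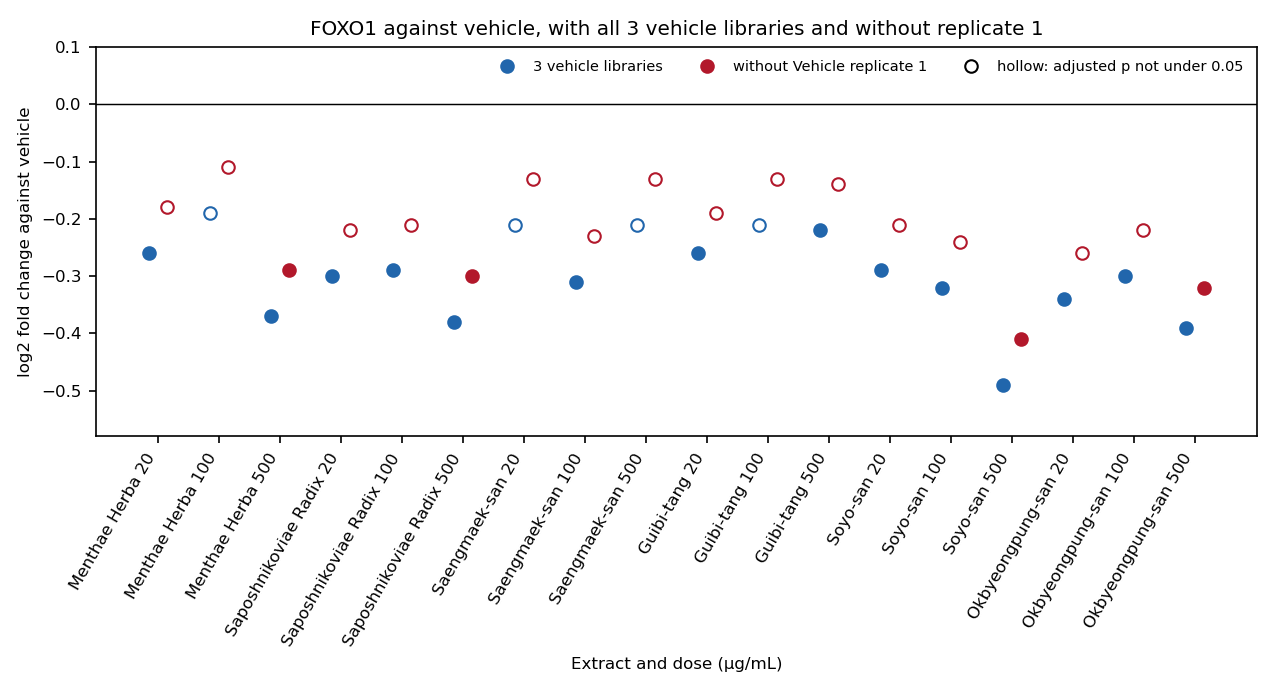
Log2 fold change of FOXO1 against vehicle for each extract and dose, with all 3 vehicle libraries and without Vehicle replicate 1, filled where the adjusted p was under 0.05. All points lie below 0, from -0.49 to -0.19 with 3 vehicle libraries and from -0.41 to -0.11 without replicate 1.

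FOXO3 (chr6:108559835-108684774, plus strand) varied least, from 44.7 to 54.2 CPM over 60 libraries. Menthae Herba at 500 µg/mL had 54.1, 53.6 and 54.2 CPM, against 49.1, 49.7 and 52.2 CPM in vehicle and 46.5, 46.4 and 50.9 CPM at 20 µg/mL. The libraries at 500 µg/mL were above both other groups. The log2 fold change was 0.17 ± 0.05 against 20 µg/mL (adjusted p = 0.00322), which was lost without the filter on low counts (adjusted p = 0.0539), and 0.10 ± 0.05 against vehicle, which was not called. Against vehicle edgeR called 0 of 18 comparisons for FOXO3, with 4 at an unadjusted p under 0.05 and 0 called by DESeq2. FOXO3 shares sequence with FOXO3B, whose counts depend on how shared reads were assigned. FOXO3B stood at 3.61 CPM of the unadjusted total with Menthae Herba at 500 µg/mL, at 4.73 CPM with Menthae Herba at 20 µg/mL and at 5.56 CPM in vehicle.

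Genes of the wider pathway were read from 5 lists that hold none of the 8 genes. The lists were chosen with earlier results of these data known, so their counts and medians are description, without a set test. Of 27 tested FOXO target genes, 19 rose and 2 fell between 500 and 20 µg/mL of Menthae Herba, with a median log2 fold change of 0.34 beside -0.01 over all genes, of which 16.2% were called higher and 16% lower. IGFBP1, which encodes a secreted binding protein of insulin-like growth factors, had 729 CPM at 500 µg/mL, against 71.3 CPM at 20 µg/mL (3.35 ± 0.22, adjusted p = 1.83e-15). G6PC1, the catalytic subunit of glucose-6-phosphatase, had 12.3 CPM, against 3.49 CPM (1.81 ± 0.17, adjusted p = 2e-12). The other 17 that rose changed by 0.16 to 1.19. CAT, which encodes catalase, fell by 0.28 on the log2 scale, with 75.1 CPM against 91.1 CPM, and CDKN1B, a cell cycle inhibitor, fell by 0.13. Against vehicle 18 rose and 2 fell, with a median of 0.34 beside 0 over all genes, of which 19.8% were called higher and 20% lower.

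Fewer FOXO targets were called with dose for the other extracts. Soyo-san at 500 against 20 µg/mL had 9 higher and 1 lower of 27, median 0.06, where 4.27% of all genes were higher and 3.29% lower. The higher ones were led by IGFBP1 at 109 CPM against 42.4 CPM and G6PC1 at 6.09 CPM against 3.61 CPM. Guibi-tang had 7 higher and 5 lower, median -0.06, beside 4.85% and 3.29% of all genes, with IGFBP1 at 152 CPM against 83.8 CPM and the zinc finger gene KLF6 at 85.7 CPM against 63.0 CPM. Saengmaek-san had 2 higher and 1 lower, median 0, beside 0.913% and 0.973%. The medians with Saposhnikoviae Radix and Okbyeongpung-san were -0.03 and 0. Against vehicle at 500 µg/mL, Saengmaek-san had 10 higher and 4 lower, beside 5.71% and 6.86% of all genes, and Guibi-tang 9 and 3, beside 6.59% and 6.83%. Soyo-san had 10 and 4, beside 10% and 11.4%, Okbyeongpung-san 5 and 2, beside 4.16% and 4.95%, and Saposhnikoviae Radix 3 and 4, beside 2.9% and 2.9%.

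**Figure D4:**
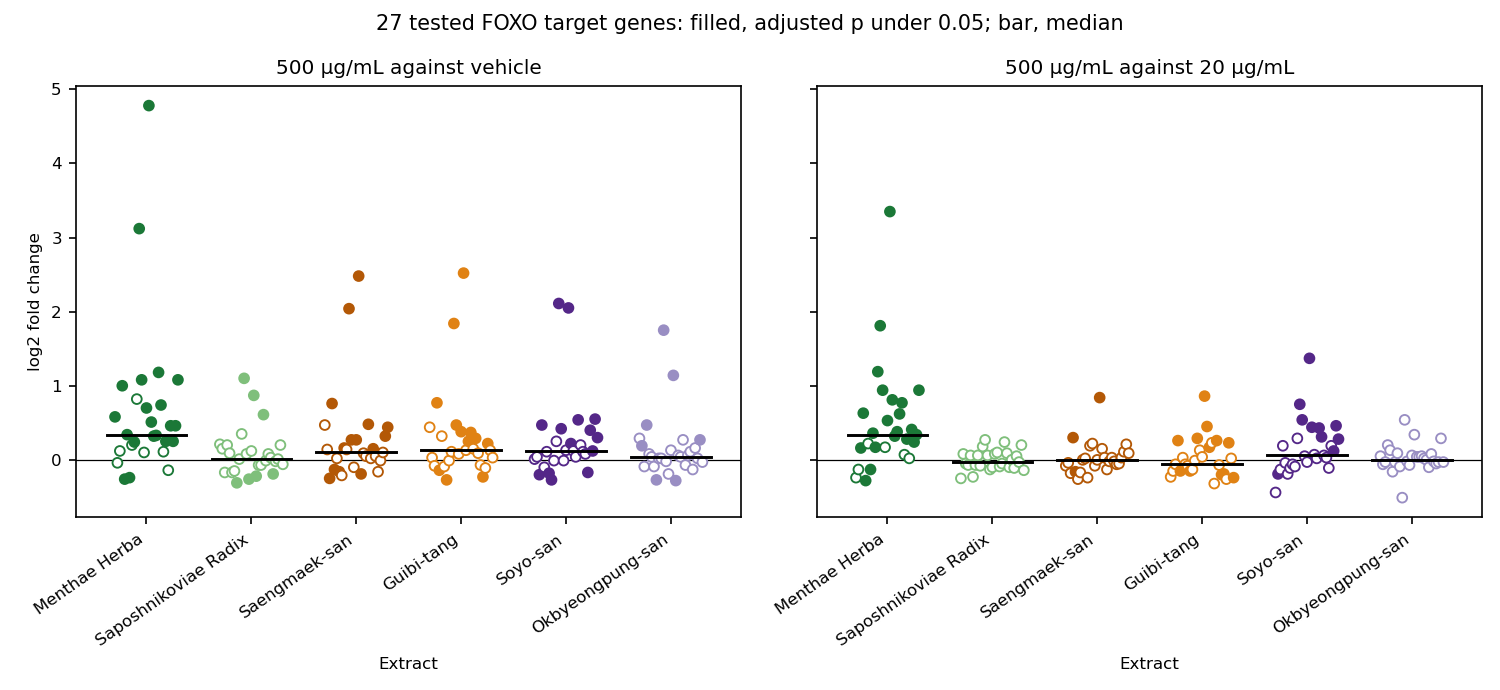
Log2 fold change of 27 tested FOXO target genes at 500 µg/mL against vehicle (left) and against 20 µg/mL of the same extract (right), 1 point a gene, filled where the adjusted p was under 0.05, with a bar at the median. With Menthae Herba the median is 0.34 in both comparisons, and against 20 µg/mL the medians of the other extracts lie between -0.06 and 0.06. The list was chosen with earlier results of these data known.

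Receptors and adaptors, kinases and brakes of the pathway moved in both directions with Menthae Herba at 500 against 20 µg/mL. Of 12 tested receptors and adaptors 5 rose and 1 fell, median 0.15, beside 16.2% higher and 16% lower over all genes, the shares against which the counts of the other lists in this comparison also stand. IGF1R, the receptor of insulin-like growth factor, had 202 CPM against 151 CPM (0.42 ± 0.06), SOS1, an exchange factor for RAS, 111 CPM against 82.4 CPM (0.43 ± 0.07), and the docking protein gene GAB1 20.1 CPM against 25.6 CPM (-0.35 ± 0.07). Of 23 tested genes of the PI3K, AKT and mTOR core 7 rose and 4 fell, median 0.01. TBC1D4, an AKT substrate that acts on glucose transporter traffic, had 155 CPM against 104 CPM (0.58 ± 0.05), and RICTOR, a subunit of mTOR complex 2, 43.5 CPM against 31.7 CPM (0.46 ± 0.09). The PI3K regulatory subunit genes PIK3R2 and PIK3R3 fell by 0.36 and 0.27 on the log2 scale, while the change of PIK3R1 was not called.

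Of 16 tested negative regulators 5 rose and 2 fell, median 0.12, beside the same 16.2% and 16% of all genes. ENPP1, which encodes a membrane ectonucleotidase known to inhibit the insulin receptor, had 274 CPM at 500 µg/mL of Menthae Herba, against 127 CPM at 20 µg/mL (1.11 ± 0.05, adjusted p = 4.93e-24). GRB10, an adaptor that restrains the receptor, had 22.4 CPM against 15.6 CPM (0.52 ± 0.07), and SOCS1, a suppressor of cytokine signalling, 5.16 CPM against 7.79 CPM (-0.60 ± 0.15). ENPP1 was also higher at 500 than at 20 µg/mL with Saengmaek-san (0.24 ± 0.05), Guibi-tang (0.24 ± 0.05) and Soyo-san (0.41 ± 0.05). Of 9 tested other FOXO factors and partners 3 rose and 1 fell with Menthae Herba, median -0.03, beside the same shares of all genes. The beta-catenin gene CTNNB1 had 466 CPM against 395 CPM (0.24 ± 0.07), and the deubiquitinase gene USP7 302 CPM against 343 CPM (-0.18 ± 0.05).

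Likeness of pattern was described by Pearson's r of mean log2 CPM over the 19 replicated groups, which share the vehicle and the library classes, with no test. Closest to DEPP1 were GRAMD1A, a sterol transfer protein gene (r = 0.98), FILIP1L (0.966) and the pyruvate kinase gene PKM (0.966). Without the 2 groups farthest from the median of DEPP1, Menthae Herba and Guibi-tang at 500 µg/mL, these were 0.918, 0.855 and 0.883. Closest to INSR were CPD (0.973), AGO2 (0.962) and ERN1 (0.949), and without Menthae Herba and Soyo-san at 500 µg/mL 0.933, 0.878 and 0.834. The genes closest to IRS1 were ABL1 (0.939), MYO9B (0.922) and PLXNA1 (0.907), and without Saposhnikoviae Radix at 500 µg/mL and Guibi-tang at 100 µg/mL these were 0.917, 0.858 and 0.889. Those closest to PIK3R1 were PDS5A (0.933), PHF3 (0.931) and EIF2AK2 (0.923), and without Menthae Herba at 100 and 500 µg/mL 0.907, 0.907 and 0.889. FOXO1 had lower values, with RSRC2 (0.857), SFSWAP (0.839) and EPAS1 (0.822), which were 0.651, 0.541 and 0.726 without vehicle and Soyo-san at 500 µg/mL. FOXO3 had INKA2 (0.851), DPYSL2 (0.849) and RNF19B (0.846), which were 0.692, 0.435 and 0.545 without Menthae Herba at 500 µg/mL and Okbyeongpung-san at 20 µg/mL. IRS2 and PIK3IP1 were below 5 CPM, and no closest genes were sought for them.

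Among the 8 genes DEPP1 went with PIK3IP1 (r = 0.776) and INSR (0.714) over 19 groups. Without Menthae Herba and Guibi-tang at 500 µg/mL these were 0.485 and 0.111, so the likeness to INSR rested on those groups. DEPP1 and PIK3R1 had r = -0.625, and -0.606 without the same groups. DEPP1 and FOXO1 had r = -0.016, and 0.254 without the same groups.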

How the data were processed

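Expected counts for each Ensembl gene were taken from the authors' deposited table. Per the submitters' processing notes the tools were FastQC 0.11.9, Trim Galore 0.6.5, STAR 2.7.3a and RSEM 1.3.3 with GRCh38. Which annotation release and strand setting were used is not given in the sources used here. Of the nonzero values 71.9% were whole (tolerance 1e-09), and all were rounded. Reads shared between genes are split by estimation, which affects FOXO3 and its near copy.

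Genes were kept by edgeR's filterByExpr with a minimum count of 10, scaled by TMM, and fitted by the quasi-likelihood model of edgeR on 57 libraries in 19 groups (edgeR 4.0.16, limma 3.58.1, DESeq2 1.42.0, R 4.3.3). The analysis was tested on simulated data. P-values were adjusted by Benjamini-Hochberg over 16644 genes, with calls under 0.05. SE is the absolute log2 fold change over the square root of F, and SD is over 3 libraries. Symbols came from a name table holding 56558 of the IDs, and positions from GENCODE v29. The counting interval of IRS2 is exact and conditional on the summed counts at 95%.

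All 8 genes were tested in every comparison. Genes named from a pathway list were chosen at 500 µg/mL, up to 2 a direction. They had the largest change among called genes with at least 5 CPM in either group and no overlap. Not all genes chosen so are named in the text, and most of those chosen against vehicle are left out. Among the latter are PIK3CD with Guibi-tang (log2 fold change 0.57) and PDPK1 with Menthae Herba (0.58). The genes and lists were chosen with earlier results of these data known. Likeness used log2 CPM with a prior count of 2 and genes of at least 5 CPM.

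Each result was recomputed with RLE scaling, no filter, DESeq2, only the groups compared, the replicate number as a block, the MALAT1 class as a term and each library left out.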

Additional observations from a re-analysis of the deposited data

Results flagged for a closer look

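The change between 500 and 20 µg/mL differed between extracts whose sample codes begin with the same number in 4 tests of the difference itself, by edgeR's quasi-likelihood test on an interaction contrast. Between Menthae Herba and Saposhnikoviae Radix the difference in log2 fold change was 2.27 for DEPP1, 0.81 for PIK3IP1 and 0.41 for INSR, with adjusted p of 6.66e-12, 0.00208 and 0.0021. Between Soyo-san and Okbyeongpung-san it was 0.87 for DEPP1 (adjusted p = 0.0128). In all 4 the first extract of the pair had the larger change. The 12 libraries of either pair lie in 1 MALAT1 class.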

How the results depend on the processing

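Of 40 calls of the 8 genes, 17 held under every alternative run, and none of 2927 alternative values changed sign past the threshold. The counts of called genes that moved by 1.5 times or more, or from or to 0, in comparisons with vehicle were these. Menthae Herba at 20 µg/mL (1 called) gave 0 with only the groups compared. At 100 µg/mL (1) it gave 3 with no filter, 3 and 4 with the replicate block over all libraries and within the first code number, 2 with only the groups compared and 2 by DESeq2. Saposhnikoviae Radix at 20 and at 500 µg/mL (1 each) gave 2 with no filter, either block or only the groups compared. Saengmaek-san at 20 µg/mL (0) gave 1 with the block within the code number or the MALAT1 class as a term. At 100 µg/mL (1) it gave 0 with only the groups compared. At 500 µg/mL (1) it gave 3 with no filter, 2 with either block, the class or DESeq2, and 0 with only the groups compared. Guibi-tang at 20 and at 100 µg/mL (1 each) gave 2 with no filter or either block and 0 with only the groups compared, and 2 at 20 µg/mL by DESeq2. Guibi-tang at 500 µg/mL (2) gave 1 with only the groups compared, and 3 with no filter or the class. Moves of 2 to 3 were also seen for Soyo-san at 500 µg/mL (no filter, either block, only the groups compared, DESeq2), for Okbyeongpung-san at 100 µg/mL (no filter, the block within the code number) and at 500 µg/mL (only the groups compared). Between 500 and 20 µg/mL, Saengmaek-san (0) gave 2 with no filter, Guibi-tang (1) gave 0 with only the groups compared, and Soyo-san (1) gave 2 with the block within the code number and 3 with only the groups compared. The cause was not tested. Fits of only the groups compared have fewer samples, and IRS2 did not pass the filter in most of them, among these Menthae Herba at 500 µg/mL against vehicle.

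Leaving out each library in turn gave counts of 0 to 1, 0 to 2 and 5 to 7 for Menthae Herba at 20, 100 and 500 µg/mL against vehicle. They were 0 to 1, 0 to 1 and 1 to 1 for Saposhnikoviae Radix, 0 to 0, 0 to 1 and 0 to 2 for Saengmaek-san, and 0 to 1, 0 to 2 and 1 to 2 for Guibi-tang. They were 0 to 2, 1 to 2 and 2 to 3 for Soyo-san and 1 to 2, 1 to 3 and 1 to 2 for Okbyeongpung-san. Between 500 and 20 µg/mL they were 4 to 4 for Menthae Herba, 0 to 1 for Guibi-tang and 1 to 1 for Soyo-san, and for the differences between extracts 2 to 4 for Menthae Herba over Saposhnikoviae Radix and 0 to 1 for Soyo-san over Okbyeongpung-san.

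The labels do not say that a replicate number marks a shared source. In 0 of 18 pairs of vehicle with an extract group, 0 of 45 pairs of groups that share a code number and 0 of 108 others were all 3 correlations over 0.1. Single correlations ran up to 0.23 among groups that share a code number and up to 0.1 elsewhere, and DEPP1 was lowest in replicate 1 in 17 of 19 groups, so the numbers may carry some shared deviation that these checks do not settle. Over all genes the fit of only the groups compared called 244 for Menthae Herba at 20 µg/mL, against 1133 in the fit on all groups. Depth limits IRS2 and PIK3IP1 most, and 3 vehicle libraries limit every comparison with vehicle.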

Other observations

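DEPP1 was lowest in the library numbered replicate 1 in 17 of the 19 replicated groups, and FOXO1 in 13 of 19. The corresponding numbers were 8 for INSR, 4 for IRS1, 4 for IRS2, 3 for PIK3R1, 4 for PIK3IP1 and 9 for FOXO3. IRS1 was lowest in replicate 3 in 12 of 19 groups, and PIK3R1 in replicate 2 in 9. The pattern of replicate 1 was chosen after its values were seen and was not tested, and its share over all genes was not computed.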
